A study of Caenorhabditis elegans with 6 samples.

Results

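The core autophagy genes of Caenorhabditis elegans, the receptor gene sqst-1 and the regulator gene hlh-30 were compared between ddi-1(icb156) mutants, in which proteasome genes are lower, and wild-type animals. The set was chosen by name, with earlier results of these data known. It holds 9 of the 19999 genes in the files: lgg-1, lgg-2, sqst-1, bec-1, atg-7, atg-9, atg-18, unc-51 and hlh-30. RNA of whole animals at the L4 stage, grown at 20°C on Escherichia coli OP50 after bleaching, was sequenced from 3 wild-type and 3 ddi-1(icb156) samples, which the labels call biological replicates. The allele icb156 is a loss-of-function, non-synonymous change recovered from a chemical (EMS) mutagenesis screen. The strain listed for it carries the icbIs4 transgene (chil-27p::GFP and col-12p::mCherry), and the labels and methods do not say whether the wild-type samples have it. The groups may therefore differ in the transgene, and in other mutations of the screen, along with ddi-1.

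Macroautophagy encloses cytoplasm in a membrane, the autophagosome, and delivers it to the lysosome for breakdown, and it works beside the proteasome as a route for removing proteins. In C. elegans it clears protein aggregates in the embryo, is needed for development of the dauer larva and for survival of starvation, and is required for many forms of long life. HLH-30, the worm counterpart of mammalian TFEB, is a helix-loop-helix transcription factor that moves into the nucleus when the TOR kinase is less active and drives genes of autophagy and the lysosome. DDI-1 is an aspartic protease that processes SKN-1A, the transcription factor that raises proteasome genes when proteasomes are impaired.

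Of the 9 genes, 2 were higher in ddi-1(icb156), none was lower and 7 did not pass the test. The 2 were sqst-1, for the worm counterpart of the mammalian cargo receptor p62, at 1.76 times its wild-type level (95% interval 1.49 to 2.07), and lgg-1, for the ubiquitin-like protein of the GABARAP family that marks autophagosomes, at 1.56 times (1.34 to 1.81). hlh-30 had a log2 fold change of 0.27, with an interval of 0.04 to 0.50, and did not pass. The kinase gene unc-51, bec-1, atg-7, atg-9, atg-18 and lgg-2 had log2 fold changes from -0.12 to 0.19, with intervals that all include 0. A gene passed when the quasi-likelihood test of edgeR gave it a p under 0.01 and, after Benjamini-Hochberg adjustment over all 15409 tested genes, an adjusted p under 0.1. By this rule 9.96% of all tested genes were higher and 13.4% were lower. The median log2 fold change was 0.18 for the 9 genes and 0.01 for all tested genes (SE below stands for the standard error of a log2 fold change). At an unadjusted p below 0.05, 3 of the 9 genes were higher and none was lower, against 19.2% and 22.8% of all tested genes. By DESeq2's Wald test at the same limits 2 were higher and none was lower, against 12.5% and 18.4%. All 9 genes passed the filter on low counts, and the lowest count of any of them in a library was 553, for bec-1.

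The libraries held 28962104 to 47142002 estimated counts, and levels are given as CPM, counts per 1000000 of the library after TMM scaling. Wild-type replicate 2 stood apart from the other 2 wild-type samples: on the principal component with 78.5% of the variance it lay at -17.2, against -77.4 and -74.9 for the others and 50.6 to 62.8 for the mutants. All 32 proteasome subunit genes were lower, at a median of -0.62 on the log2 scale and a summed level of 7963 to 8117 CPM in wild type and 4932 to 5324 CPM in the mutants. Genes of reproduction moved with the groups as well. All 6 yolk protein genes were lower, with a sum of 2754 CPM in wild-type replicate 2, 5293 and 5709 CPM in the other wild-type samples and 302 to 536 CPM in the mutants. Of 14 oocyte and eggshell genes 11 were lower, with sums of 520 to 1124 CPM in wild type and 309 to 389 CPM in the mutants, though only 2 passed without mutant replicate 2 and 3 to 5 without wild-type replicate 1 or 3 or mutant replicate 1 or 3. Without wild-type replicate 2, by DESeq2 or with the replicate block all 14 passed. Of 4 cuticle collagen genes 3 were lower and 1 higher, each under all 14 alternatives. The log2 fold changes were -3.82 for bli-1, -3.55 for bli-2, -5.78 for col-19 and 0.68 for rol-6. None of these markers was at 0 in every library. All 12 markers of intestine, body wall muscle, pharynx, epidermis, neurons and germline were detected in every library, at 15.3 CPM or more. Of these rab-3 was higher in the mutants under all 14 alternatives. col-10 was higher too, but did not pass without wild-type replicate 1 or mutant replicate 1 or 3, and myo-3 was lower but passed under only 5 of the 14. The other 9 of the 12 did not pass, and the log2 fold changes of the 12 ran from -0.50 to 1.31. The part of the marker differences, and of the transgene, in the values of the autophagy genes was not tested. In RNA of whole animals, fewer cells of a type and less RNA per cell cannot be told apart. The ddi-1 transcript itself was lower, at 48.49, 50.34 and 48.62 CPM in wild type and 35.00, 35.30 and 35.48 CPM in the mutants (log2 fold change -0.48, SE 0.05, edgeR adjusted p = 0.00308). Since icb156 changes the coding sequence, this level is not a check of the labels.

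**Figure D1:**
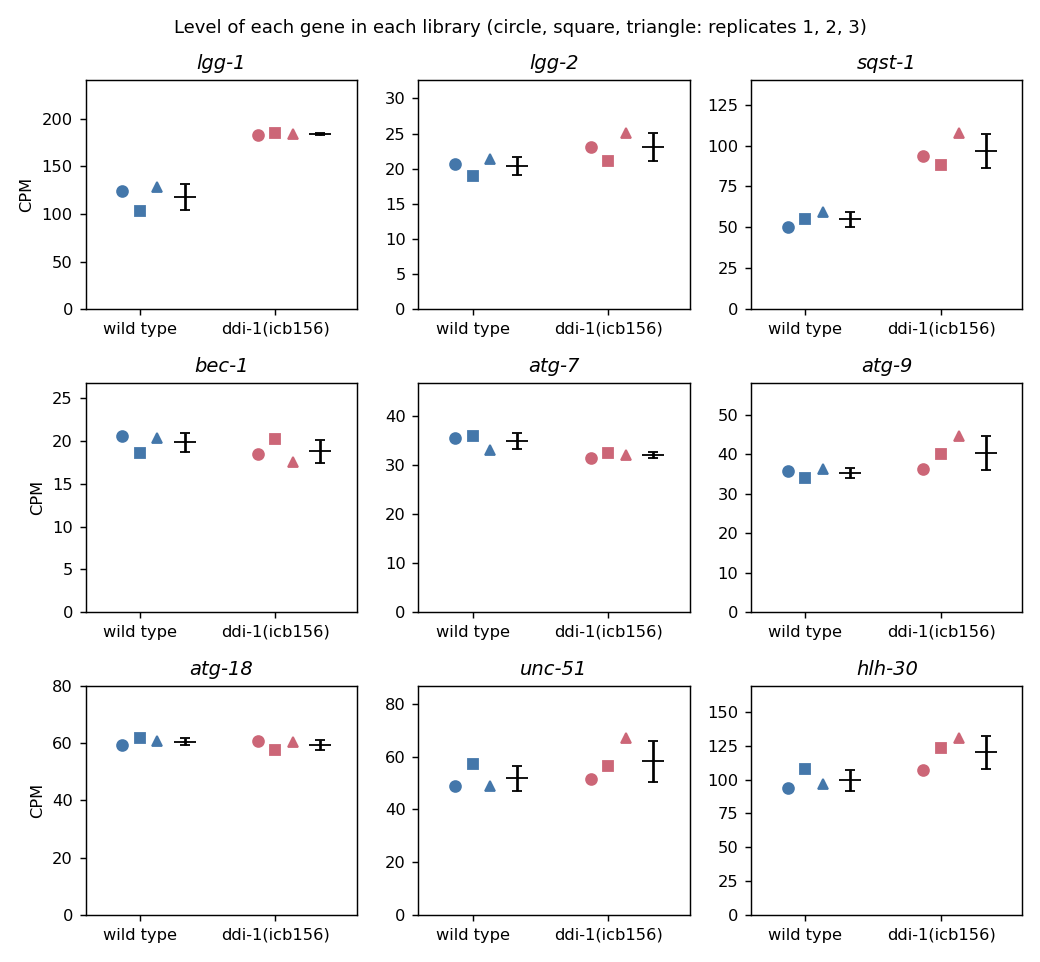
Level of each of the 9 genes in each library, in CPM (counts per 1000000 of the TMM-scaled library), with a y axis from 0 in every panel. Points are libraries (circle, square and triangle for replicates 1, 2 and 3; blue wild type, red ddi-1(icb156)), and the black bars beside them are the mean ± SD of 3. The groups are well apart for lgg-1 and sqst-1, and the points of 5 genes overlap.

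sqst-1 (WBGene00011737, T12G3.1) lies on chromosome IV of WBcel235 from 12034282 to 12036891 on the plus strand. Its product, SQST-1, binds ubiquitinated proteins and LGG-1 and is itself broken down by autophagy, so its protein is a common readout of autophagic flux in worms. The RNA measured here does not give the protein. It was at 50.46, 54.80 and 59.28 CPM in the 3 wild-type libraries and at 93.59, 87.81 and 107.84 CPM in the 3 mutant libraries. Every mutant library was above every wild-type library. The means were 54.8 ± 4.41 CPM in wild type and 96.4 ± 10.3 CPM in the mutants (SD, n = 3 each). The log2 fold change was 0.81 (SE 0.10, 95% interval 0.57 to 1.05, edgeR adjusted p = 0.00402). sqst-1 passed under each of the 14 alternatives, at 0.72 to 0.89, and without wild-type replicate 2 the log2 fold change was 0.81 (adjusted p = 3.79e-04).

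lgg-1 (WBGene00002980, C32D5.9) lies on chromosome II from 6346960 to 6347719 on the minus strand and has a single transcript in the files. LGG-1 is conjugated to phosphatidylethanolamine on the growing membrane, and LGG-1 puncta are the usual marker of autophagosomes in the worm. It was at 124.04, 102.71 and 128.24 CPM in wild type and at 183.09, 185.54 and 183.91 CPM in the mutants. The 3 mutant libraries lay close together and above all wild-type libraries, of which replicate 2 was the lowest. The means were 118 ± 13.7 CPM and 184 ± 1.25 CPM (SD, n = 3 each). The log2 fold change was 0.64 (SE 0.09, 95% interval 0.42 to 0.86, edgeR adjusted p = 0.00717). lgg-1 passed under all 14 alternatives, with log2 fold changes from 0.54 without wild-type replicate 2 to 0.72 with scaling by library size alone, and its largest adjusted p was 0.0498, without mutant replicate 2.

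lgg-2 (WBGene00002981, ZK593.6), which encodes the LC3-type relative of LGG-1, lies on chromosome IV from 10934196 to 10935903 on the minus strand. It was at 20.69, 18.89 and 21.41 CPM in wild type and at 23.05, 21.08 and 25.13 CPM in the mutants. The groups overlapped, since mutant replicate 2 was below wild-type replicate 3. The log2 fold change was 0.18 (SE 0.10, 95% interval -0.05 to 0.42, edgeR adjusted p = 0.203). To set the LGG genes against each other within a library, levels were computed per transcript length as TPM (transcripts per 1000000). By this measure lgg-1 was at 9.87, 8.97 and 9.87 times lgg-2 in wild type and at 12.97, 14.45 and 12.01 times in the mutants. The ratio was higher in every mutant library, by 0.46 on the log2 scale, with an exact permutation p of 0.1 (two-sided), the smallest that 3 against 3 samples allow. The ratio of sqst-1 to lgg-1 overlapped between the groups, with a log2 difference of 0.14 and an exact permutation p of 0.4. With 3 samples per group, none of the 3 ratios compared can pass a limit of 0.05.

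hlh-30 (WBGene00020930, W02C12.3) lies on chromosome IV from 4014793 to 4034951 on the minus strand, with 16 transcripts in the files. It was at 93.89, 108.12 and 96.38 CPM in wild type and at 106.92, 123.01 and 130.40 CPM in the mutants. The groups overlapped by 1 library on each side, since mutant replicate 1 was just below wild-type replicate 2, and the other 2 mutant libraries were above all of wild type. The means were 99.5 ± 7.60 CPM and 120 ± 12.003 CPM (SD, n = 3 each). The log2 fold change of 0.27 (SE 0.10) had an adjusted p of 0.0768 from edgeR's quasi-likelihood test, under the limit on the adjusted p, but its unadjusted p of 0.0262 was above the limit of 0.01. hlh-30 passed under 3 of the 14 alternatives: without wild-type replicate 2 (0.33, adjusted p = 0.0155), without mutant replicate 1 (0.35, adjusted p = 0.0808) and with scaling by library size alone (0.35, adjusted p = 0.0372). Over its 14 alternatives the adjusted p ran from 0.0155 to 0.265. Without wild-type replicate 2, 19.7% of all tested genes were higher and 22.2% were lower. The ratio of sqst-1 to hlh-30, in TPM, was 0.544, 0.517 and 0.631 in wild type and 0.960, 0.741 and 0.830 in the mutants. It was higher in every mutant library, by 0.58 on the log2 scale (exact permutation p = 0.1, two-sided, the smallest possible).

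**Figure D2:**
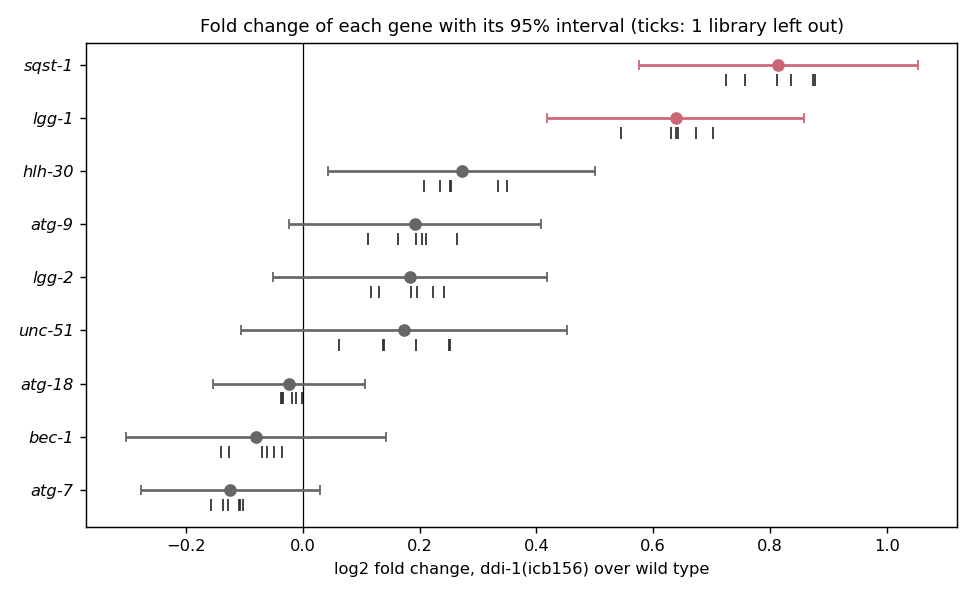
log2 fold change (x axis, ddi-1(icb156) over wild type) of the 9 genes, ordered by size. Points and bars are the estimate and 95% interval from edgeR's fit, in red for the 2 genes that passed and grey for the others, and the ticks under each bar are the estimates with 1 of the 6 libraries left out. All ticks of sqst-1 and lgg-1 lie above 0.5, and those of hlh-30 run from 0.21 to 0.35.

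The other genes of the set act at successive steps of autophagosome formation, and none of them passed. unc-51 (WBGene00006786, chromosome V from 19995986 to 20004485, minus strand) encodes the ULK-type kinase that starts autophagy and is also needed for axon guidance. It was at 48.99, 57.28 and 48.98 CPM in wild type and at 51.72, 56.41 and 66.90 CPM in the mutants. Wild-type replicate 2 was above 2 of the mutant libraries, so the groups overlapped (log2 fold change 0.17, SE 0.12, interval -0.11 to 0.45, edgeR adjusted p = 0.304). bec-1 (WBGene00000247, chromosome IV from 5661141 to 5664425, minus strand) encodes the Beclin counterpart in the lipid kinase complex of VPS-34. It was at 20.64, 18.62 and 20.32 CPM in wild type and at 18.52, 20.26 and 17.57 CPM in the mutants. The libraries of the groups were interleaved (log2 fold change -0.08, SE 0.09, interval -0.30 to 0.14, adjusted p = 0.556). On the chromosome 756 bases separate bec-1 from skn-1, the gene of the transcription factor that DDI-1 processes, and 858441 bases separate it from ddi-1. skn-1 overlapped between the groups as well, with a log2 fold change of -0.03 (adjusted p = 0.757).

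atg-9 (WBGene00020706, chromosome V from 349385 to 359658, plus strand) encodes the transmembrane protein whose vesicles seed the growing membrane. It was at 35.88, 33.95 and 36.19 CPM in wild type and at 36.24, 40.14 and 44.77 CPM in the mutants. All mutant libraries were above wild type, though replicate 1 only just, and it did not pass (log2 fold change 0.19, SE 0.09, interval -0.02 to 0.41, edgeR adjusted p = 0.155). atg-18 (WBGene00018294, chromosome V from 8629174 to 8631327, minus strand) encodes a WIPI-type protein that binds the lipid made by VPS-34. It was at 59.13, 61.56 and 60.52 CPM in wild type and at 60.63, 57.44 and 60.22 CPM in the mutants. Its groups overlapped throughout, and its interval was the narrowest of the 9 (log2 fold change -0.02, SE 0.05, interval -0.15 to 0.11, adjusted p = 0.774). The signs of the fold changes of atg-18 and bec-1 turned under scaling by library size alone, and that of atg-18 also on the TPM scale.

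atg-7 (WBGene00010882, chromosome IV from 11078682 to 11081055, minus strand) encodes the E1-like enzyme that activates LGG-1 and LGG-2 for conjugation. It was at 35.57, 36.08 and 33.14 CPM in wild type and at 31.42, 32.54 and 32.20 CPM in the mutants. It was the 1 gene of the set whose mutant libraries all lay below wild type, and it did not pass (log2 fold change -0.12, SE 0.06, interval -0.28 to 0.03, edgeR adjusted p = 0.190). Of the 9 genes, 3 were higher in every mutant library than in every wild-type library, 1 was lower in every one and 5 overlapped. Over all tested genes 23.4% were higher and 23.5% lower without overlap. On WBcel235, 1 of the 9 genes lies on chromosome II, 5 on IV and 3 on V, and none shares exon sequence with another annotated gene.

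Per transcript length, lgg-1 was the most abundant of the 9, at 190 ± 18.3 TPM in wild type and 303 ± 16.6 TPM in the mutants (SD, n = 3 each). hlh-30 was next in wild type at 40.8 ± 4.46 TPM, then atg-18 at 33.3 ± 1.27 TPM and sqst-1 at 22.9 ± 1.91 TPM. In the mutants sqst-1 was at 40.4 ± 3.61 TPM, above atg-18 at 33.6 ± 0.532 TPM in every library. lgg-2 was at 19.8 ± 0.913 TPM in wild type, bec-1 at 17.3 ± 2.76 TPM, unc-51 at 16.202 ± 1.82 TPM, atg-7 at 15.8 ± 0.921 TPM and atg-9 at 13.2 ± 1.39 TPM. The wild-type ranges of lgg-2 and bec-1, of bec-1 and unc-51 and of unc-51 and atg-7 overlapped, so their order is not resolved. Within the tested genes these levels ran from percentile 57.6 for atg-9 to 96.6 for lgg-1.

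The files give counts per transcript, and the 9 genes have 35 transcripts, of which 28 passed the filter. In the same edgeR test on transcripts 1 of the 28 was higher, the single transcript of lgg-1 (log2 fold change 0.64, adjusted p = 0.0462), and none was lower, against 2.59% and 2.76% of all 25554 tested transcripts. The call was lost with the replicate number as a block and without any 1 library other than wild-type replicate 2, which left 0 higher. At an unadjusted p below 0.05, 6 of the 28 were higher and none was lower, against 8.65% and 12.2% of all tested transcripts. DESeq2 called 6 higher and none lower, against 7.21% and 10.7%. Transcripts of a gene that share a coding sequence differed in opposite ways between libraries. Transcript 1 of unc-51, for example, was at 0.15, 3.99 and 0.86 CPM in wild type and at 51.51, 16.15 and 32.99 CPM in the mutants, while transcript 2 was at 48.88, 53.43 and 48.13 CPM in wild type and at 0.37, 40.47 and 33.78 CPM in the mutants. Their sum is the gene, which did not pass. The division of reads between such transcripts is an estimate whose error the files do not give.

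Summed by coding isoform, a step added after the transcript values had been seen, 23 isoforms of the 9 genes were in the files and 20 were tested. The 2 that were higher were that of lgg-1 and isoform a of sqst-1, and none was lower. Of all 20628 tested isoforms 6.23% were higher. The share of all isoforms that was lower was not computed, so the count of none lower has no comparison. sqst-1 isoform a was at 37.41, 37.96 and 46.23 CPM in wild type and at 78.88, 71.23 and 81.95 CPM in the mutants. Its groups were far apart (log2 fold change 0.93, SE 0.11, edgeR adjusted p = 0.00878). Isoform b, the shorter one, was at 13.01, 16.999 and 13.01 CPM in wild type and at 14.82, 16.78 and 25.61 CPM in the mutants. Its groups overlapped (log2 fold change 0.41, SE 0.24, adjusted p = 0.307). Isoform a made up 69.1 to 78.0% of sqst-1 counts in wild type and 76.2 to 84.2% in the mutants, ranges that overlap, and the difference between the isoforms was not tested. Isoform b of lgg-2 had no counts in any library, isoform a of atg-18 had a log2 fold change of -0.00 and isoform b one of -0.05.

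The isoforms of hlh-30 differ in their start. The annotated transcripts of isoforms b and c begin at position 4028127 of chromosome IV. The transcript with most of the counts of c has no annotated position, so its start was taken from the isoform letter. Together b and c were at 47.56, 56.99 and 49.85 CPM in wild type and at 67.18, 75.63 and 73.60 CPM in the mutants. All 3 mutant libraries were above wild type. Isoforms b and c made up 50.7 to 52.6% of hlh-30 counts in wild type and 56.6 to 62.8% in the mutants. Isoform c alone overlapped, at 47.56, 56.99 and 49.53 CPM in wild type and 53.36, 71.10 and 73.58 CPM in the mutants. Isoform b was at most at 0.33 CPM in wild type and at 13.81, 4.53 and 0.01 CPM in the mutants. For mutant replicate 1 the gap rests on isoform b. Over all tested genes 23.4% were higher in the mutants without overlap, a share of whole genes. No such share was computed for isoforms or groups of isoforms. The annotated transcripts of isoforms a, f, g and h begin between 4018331 and 4019044, downstream of 4028127. As for c, a transcript of g has no annotated position. Isoforms a, f, g and h were at 28.26, 28.81 and 32.19 CPM in wild type and at 27.63, 29.84 and 30.76 CPM in the mutants. These overlapped, and made up 26.6 to 33.4% of counts in wild type and 23.6 to 25.8% in the mutants. The remaining groups, of isoforms d, e, i and j, overlapped as well. The grouping by start was made after the values had been seen and is a description without a test. Of single isoforms, c had a log2 fold change of 0.36 (adjusted p = 0.154), d one of 0.75 (adjusted p = 0.0921) and g one of 0.00 (adjusted p = 0.982, all from edgeR), and none passed.

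**Figure D3:**
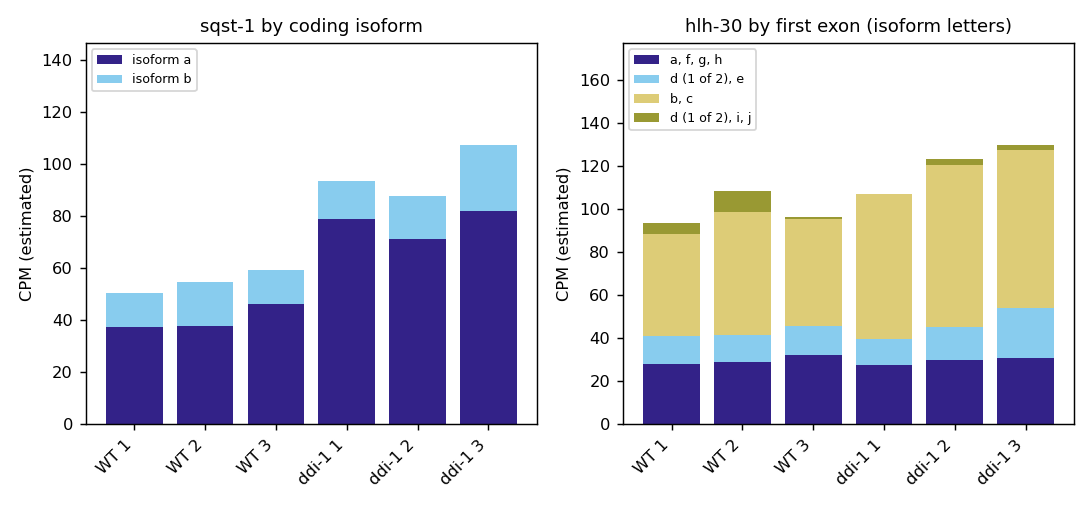
Estimated level, in CPM, of sqst-1 by coding isoform (left) and of hlh-30 by group of start (right). Bars are stacked for each of the 6 libraries, which are on the x axis. Starts of transcripts without an annotated position were taken from the isoform letter. Isoform a of sqst-1 is at 37.4 to 46.2 CPM in wild type and 71.2 to 82.0 CPM in the mutants, and the band of hlh-30 isoforms b and c is the one that is taller in every mutant library.

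The genes whose 6 values of log2 CPM followed those of hlh-30 most closely were catp-6 (Pearson r = 0.996), rpi-2 (r = 0.991) and C35C5.9 (r = 0.991), and 617 tested genes had an r above 0.9. For sqst-1 they were E03H4.8 (r = 0.997), atfs-1 (r = 0.996) and F35E8.2 (r = 0.996), and 1124 genes had an r above 0.9. atfs-1 encodes the transcription factor of the mitochondrial unfolded protein response. These correlations are over 6 libraries in 2 groups and share the libraries' depth. Any gene that is higher in the mutants tends to have a high r with sqst-1.

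Beyond the 9 genes, 38 other autophagy genes were listed by step, and 36 were tested, of which 4 were higher and 2 lower. The other 30 did not pass, and the median over the 36 was 0.04 on the log2 scale. The share that was higher, 4 of 36, is near the 9.96% of all tested genes, and the share that was lower, 2 of 36, is below the 13.4%. epg-9, the counterpart of mammalian ATG101 in the complex of UNC-51, was at 9.63, 11.03 and 8.54 CPM in wild type and at 17.82, 15.63 and 17.88 CPM in the mutants. Every mutant library was above wild type, and the fold change was about as large as that of sqst-1 (log2 fold change 0.81, SE 0.13, edgeR adjusted p = 0.0107). epg-2 encodes a scaffold for autophagy of SEPA-1 in embryos. It was at 16.09, 17.69 and 16.38 CPM in wild type and at 25.42, 24.56 and 26.92 CPM in the mutants. It did not overlap either (log2 fold change 0.62, SE 0.08, adjusted p = 0.00532). Some of its counts are uncertain, since its exons overlap those of tpxl-1 on the other strand and neither labels nor methods say whether the libraries keep the strand. allo-1, the receptor for autophagy of paternal mitochondria, had a log2 fold change of 0.35 (SE 0.07, adjusted p = 0.0225), from 35.4 ± 2.30 to 45.3 ± 1.80 CPM (SD, n = 3 each).

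Of the genes for fusion with the lysosome, vamp-7, a SNARE gene, was higher, from 11.05 ± 0.473 to 15.7 ± 0.702 CPM (SD, n = 3 each; log2 fold change 0.51, SE 0.10, edgeR adjusted p = 0.0182). It begins 586 bases after the end of epg-9, on the same strand of chromosome IV. The 2 that were lower were vps-18 (log2 fold change -0.25, adjusted p = 0.0319) and vps-39 (-0.33, adjusted p = 0.0379), both subunits of the HOPS tethering complex. vps-39 overlaps exons of ins-10 on the other strand. With the replicate number as a block vps-18 no longer passed, which left 1 lower. There were 7 higher and 3 lower of 36 without wild-type replicate 2, where 19.7% of all tested genes were higher and 22.2% lower. Without wild-type replicate 1 or 3 or mutant replicate 1 or 2 neither vps-18 nor vps-39 passed. vamp-7 did not pass without mutant replicate 2, and epg-9, epg-2 and allo-1 passed under all 14 alternatives. By step, 1 of 3 initiation genes was higher (median log2 fold change 0.27), none of 3 lipid kinase genes passed (0.16), nor any of 4 genes of membrane growth (0.06) or of 8 conjugation genes (0.07). Of 11 fusion genes 1 was higher and 2 were lower (-0.16), and of 7 tested receptor and substrate genes 2 were higher (0.22). The conjugation genes include atg-5 (0.07), atg-16.2 (0.27) and lgg-3 (-0.06), which with atg-7 serve the attachment of LGG-1, and all 3 overlapped between the groups.

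Around HLH-30, 58 genes of the TOR pathway, the lysosomal lipases, the vacuolar ATPase (the proton pump of the lysosome) and the lysosomal membrane were listed and 57 tested. None was higher and 5 were lower. The other 52 did not pass, and the median over the 57 was -0.10 on the log2 scale. At an unadjusted p below 0.05 none of the 57 was higher and 13 were lower, where 19.2% and 22.8% of all tested genes were. DESeq2 called none higher and 6 lower, where it called 12.5% and 18.4% of all tested genes. The share that was lower is near that of all tested genes at the unadjusted limit and below it in the other tests, 5 of 57 against 13.4% by the passing rule. Without wild-type replicate 2, 3 were higher and 6 were lower, where 19.7% of all tested genes were higher and 22.2% lower. aak-1, a catalytic subunit of the energy-sensing kinase AMPK, was at 40.41, 30.87 and 40.74 CPM in wild type and at 24.89, 25.10 and 24.34 CPM in the mutants. Wild-type replicate 2 lay between the others and the mutants (log2 fold change -0.59, SE 0.12, edgeR adjusted p = 0.0203), and the gene did not pass without wild-type replicate 3 or mutant replicate 2. Its exons overlap those of sma-2 on the other strand.

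unc-32 and vha-7, which encode forms of subunit a of the vacuolar ATPase, were both lower, unc-32 by a log2 fold change of -0.35 (SE 0.06, edgeR adjusted p = 0.0108) and vha-7 by one of -0.50 (SE 0.09, edgeR adjusted p = 0.0125). On the log2(TPM + 1) scale vha-7 was at -0.17 and did not pass (adjusted p = 0.310 from limma). ctns-1, for the lysosomal cystine transporter, was at -0.43 (SE 0.07, adjusted p = 0.0112) and passed under all 14 alternatives, as did unc-32. ncr-2, a relative of the mammalian cholesterol transporter NPC1, was at 22.13, 10.32 and 22.43 CPM in wild type and 6.53, 6.08 and 9.65 CPM in the mutants. Wild-type replicate 2 was near mutant replicate 3 (log2 fold change -1.30, SE 0.34, edgeR adjusted p = 0.0384), and ncr-2 passed under 7 of the 14 alternatives. None of 7 tested lipases passed (median 0.07), among them lipl-4, at 2.21 ± 0.640 CPM in wild type and 1.86 ± 0.279 CPM in the mutants (SD, n = 3 each). The kinase gene let-363, for TOR itself, had a log2 fold change of -0.18 (interval -0.44 to 0.07, adjusted p = 0.230) and daf-15, for its partner Raptor, one of -0.24 (interval -0.47 to -0.02, adjusted p = 0.102). Neither passed. The libraries that differ in yolk and eggshell genes are the same ones, and the part of stage in these values was not tested.

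**Figure D4:**
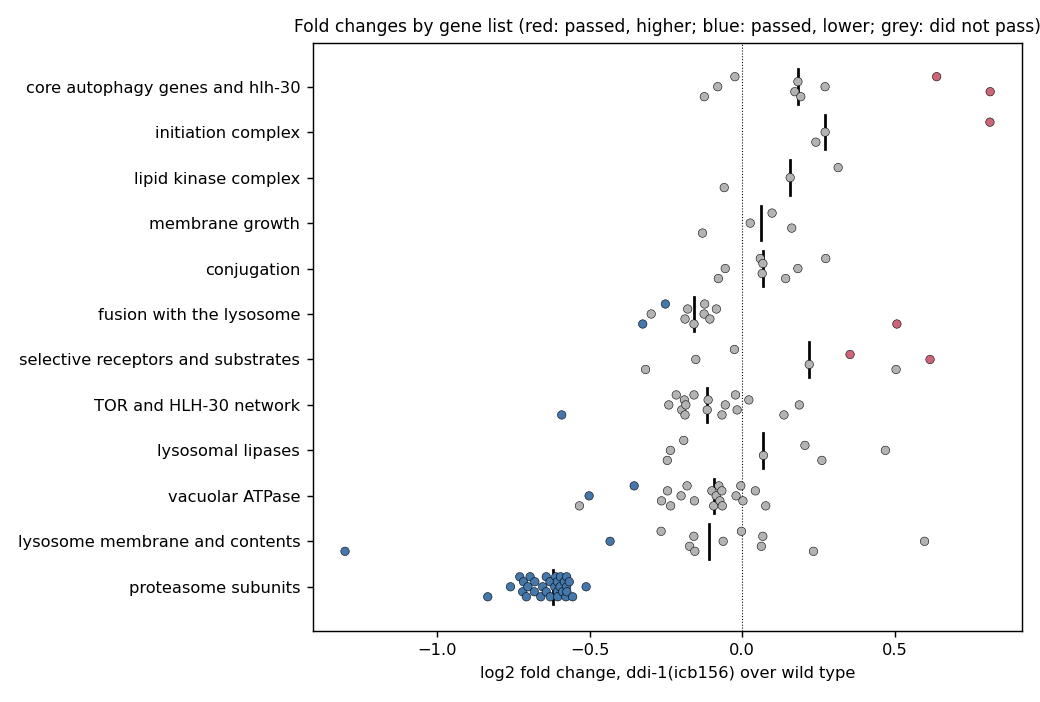
log2 fold change (x axis, ddi-1(icb156) over wild type) of every tested gene of each list (rows), with the 9 genes of the set in the top row and the 32 proteasome subunits in the bottom row. Red points passed and were higher, blue points passed and were lower, grey points did not pass, and the black lines are medians. The proteasome points all lie below -0.5, while most points of the autophagy and lysosome lists are grey and lie on both sides of 0.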

How the data were processed

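After TRIzol extraction and sequencing by BGI, the authors quantified libraries with kallisto against the WormBase WS283 transcriptome and used Sleuth. The sources used here give no version of either. Deposited values are estimated counts of 37058 transcripts per library, not normalized, with lengths and effective lengths. Transcripts were joined to genes by the WBcel235 annotation of Ensembl release 115 (30413 by transcript ID, 6633 by sequence name, 12 unmatched). Estimated counts were summed per gene, rounded, filtered by filterByExpr (15409 genes kept), scaled by TMM and tested, two-sided and without covariates, by the robust quasi-likelihood test of edgeR 4.0.16 (R 4.3.3), over which Benjamini-Hochberg adjustment was made. Genes varied between replicates with a biological coefficient of variation of 0.202 (4 residual degrees of freedom). Standard errors come from the fold change and its F statistic. Genes of few counts are imprecise, and p-values measure only the spread between these samples. The test was also run on simulated counts that varied less between replicates than these data, so that run does not measure its error here. TPM were computed from estimated counts and effective lengths, which the test design had taken to be in the files.

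Alternatives were DESeq2 1.42.0 (its size factors and its Wald test), library size alone, other count filters, limma 3.58.1 on log2(TPM + 1) and log2(TPM + 0.5), each replicate left out and the replicate number as a block. Deviations of same-numbered samples correlated at 0.114, 0.309 and 0.185, though wild-type replicate 1 correlated as much with mutant replicate 3 (0.114), and the labels name no shared batch. The tests reported are unpaired, and the block is given beside a result where it changes the call. Beside the 9 genes, the text names passing genes of each list, checks (ddi-1, skn-1), the 3 genes most like hlh-30 and sqst-1, and genes picked for their role after their values were seen (atg-5, atg-16.2, lgg-3, lipl-4, let-363, daf-15). The members and lists were chosen with earlier results of these data known.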

Additional observations from a re-analysis of the deposited data

How the results depend on the processing

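Across 14 alternatives the 9 genes gave 2 or 3 higher and 0 lower, and all 32 proteasome genes stayed lower. sqst-1, lgg-1, lgg-2, unc-51, atg-9 and atg-7 kept direction and call throughout. With library size alone, which moved the median of all genes by 0.08, bec-1 had a log2 fold change of 0.0068 and atg-18 one of 0.059, and on log2(TPM + 1) and log2(TPM + 0.5) atg-18 was at 0.013 and 0.014. Of the other autophagy genes 2 were lower in the main comparison, against 0 with library size alone, 0 on log2(TPM + 1), 0 on log2(TPM + 0.5), 1 with the replicate block and 0 to 3 with 1 replicate left out, and 3 to 7 were higher with 1 left out, where 4 were in the main comparison. Of the TOR and lysosome genes 5 were lower, against 3 on log2(TPM + 1), 3 on log2(TPM + 0.5) and 3 to 6 with 1 left out, and 0 to 3 were higher with 1 left out. The most, 3, came without wild-type replicate 2, as did the 7 of the other autophagy genes. In that fit 19.7% of all tested genes were higher and 22.2% lower, and these shares were not computed for the other left-out replicates. With the replicate block 6 of the TOR and lysosome genes were lower, vha-18 being added. Of the transcripts of the 9 genes 1 was higher, against 6 by DESeq2, 4 on log2(TPM + 1), 4 on log2(TPM + 0.5), 0 with the replicate block, 2 by coding isoform and 0 to 3 with 1 left out, and 0 to 1 were lower with 1 left out. Of all tested transcripts DESeq2 called 7.21% higher. Under the block vps-18 and myo-3 no longer passed, and the calls of the other genes named in the comparisons did not change. The cause of these shifts was not tested. With 3 libraries per group, the 95% intervals of the 9 genes were 0.26 to 0.56 wide on the log2 scale, and differences well inside them were not detectable.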
